A study of Mus musculus with 4 samples.

Results

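The collagen genes of mouse pancreatic islets were followed across 4 RNA sequencing libraries, 1 per group. They were taken as the protein-coding genes whose symbol is Col, a type number, the letter a and a chain number with nothing after it. The files held 44 such genes among 43629 gene entries: 11 of the fibrillar class, 6 of type IV, which is the basement membrane class, and 27 others. Islets are the clusters of hormone cells in the pancreas. All libraries came from C57BL/6 mice. The first was made from islets of genotype Rip2;IMP2, titled an islet-specific knockout of IMP2, the RNA-binding protein encoded by Igf2bp2; Rip2 is the usual name of a rat insulin promoter, active in beta cells, and the labels name no recombinase. The second, labelled IMP2-RIP seq, held RNA recovered with IMP2 by RNA immunoprecipitation (RIP) from WT islets, and the third, labelled IgG after the antibody that commonly serves as the control of a RIP, also came from WT islets. The fourth came from islets of the control genotype. Age, sex, the number of mice pooled and the exact alleles are not given in the sources used here.

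Collagens are extracellular proteins of 3 chains wound into a triple helix. Fibrillar collagens (types I, II, III, V, XI, XXIV and XXVII) assemble into the fibrils that give tissue its tensile strength, whereas type IV forms the sheet-like network of basement membranes. The remaining types coat fibrils, build beaded filaments, link basement membranes to fibrils or cross the plasma membrane. In mouse islets the basement membrane around the capillaries is made largely by endothelial cells, and interstitial fibrils are made by fibroblasts, stellate cells and pericytes. Beta cells, where the Rip2 promoter is active, are not among the main collagen producers.

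The library labelled knockout held 24275628 gene counts, the RIP 6025594, the IgG library 13195732 and control islets 26350813. Igf2bp2 was not clearly lower under the knockout label: it had 9.14 CPM (222 counts; 1 CPM is 1 count per 1000000 gene counts of the library) in the library labelled knockout, 30.9 CPM in the IMP2 RIP, 34.7 CPM in the IgG library and 9.68 CPM (255 counts) in control islets, so that library is called the labelled knockout throughout. The IgG library went against its islet label. Its 10 beta cell markers summed to 973 CPM, against 335002 CPM in labelled knockout islets, 236058 CPM in the IMP2 RIP and 309568 CPM in control islets, while its 12 brown adipocyte markers summed to 38142 CPM, against 229 CPM in labelled knockout islets, 2421 CPM in the IMP2 RIP and 274 CPM in control islets. A comparison with the IgG library therefore sets collagen genes of an RNA pool rich in islet transcripts against those of a pool that is not, and results are also given against control islets. With 1 library per group no difference could be tested. Each ratio carries an exact 95% interval that covers counting error only and compares 2 libraries, not 2 conditions.

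Col4a1 (mm10 chromosome 8, 11198423 to 11312826, minus strand) and Col4a2 (chromosome 8, 11312805 to 11449287, plus strand) encode the chains found in nearly all basement membranes. They lie head to head on opposite strands, with starts 21 bases apart and an overlap of 22 bases, so that each runs through the start of the other and their promoter windows, from 250 bases before to 50 bases after the RefSeq start, share 78 bases. The pair is shown because both genes were lower in labelled knockout islets, while in the RIP over IgG Col4a2 was called higher and Col4a1 was not called. Col1a2, a chain of type I collagen, is shown as a fibrillar window that holds CCCTCCCC and CCAAT, as those of the type IV pair do. Capitals mark these motifs and TATAA, or the reverse complements GGGGAGGG, ATTGG and TTATA, searched on both strands.
Col4a1 promoter (GRCm38.p6, chr8:11312777-11313076, minus strand): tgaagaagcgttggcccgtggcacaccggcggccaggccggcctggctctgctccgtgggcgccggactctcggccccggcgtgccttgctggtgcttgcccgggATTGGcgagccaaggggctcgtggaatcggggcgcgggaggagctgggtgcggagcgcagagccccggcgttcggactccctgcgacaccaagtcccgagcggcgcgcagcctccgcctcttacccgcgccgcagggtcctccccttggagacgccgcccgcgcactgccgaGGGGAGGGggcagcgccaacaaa
Col4a2 promoter (GRCm38.p6, chr8:11312555-11312854, plus strand): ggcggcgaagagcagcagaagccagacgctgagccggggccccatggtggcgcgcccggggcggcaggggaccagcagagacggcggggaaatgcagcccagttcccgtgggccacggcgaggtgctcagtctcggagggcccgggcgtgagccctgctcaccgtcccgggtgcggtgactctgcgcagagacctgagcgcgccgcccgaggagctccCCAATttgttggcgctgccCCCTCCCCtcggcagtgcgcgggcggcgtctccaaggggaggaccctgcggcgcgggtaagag
Col1a2 promoter (GRCm38.p6, chr6:4505368-4505667, plus strand): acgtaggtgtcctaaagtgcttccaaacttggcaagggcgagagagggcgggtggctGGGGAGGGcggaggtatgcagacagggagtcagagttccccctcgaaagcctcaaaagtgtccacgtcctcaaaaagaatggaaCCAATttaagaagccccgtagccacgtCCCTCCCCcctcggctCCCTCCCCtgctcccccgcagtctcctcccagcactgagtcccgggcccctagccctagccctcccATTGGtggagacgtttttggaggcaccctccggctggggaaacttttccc
A window was found for 35 of the 44 genes. CCCTCCCC stood in 10 of these 35 genes and in 10.8% of 32851 RefSeq windows of the same length. A gene was counted when any of its windows held a match, whereas the percentage is over windows. The Col4a1 and Col4a2 matches to CCCTCCCC are the same bases, inside the stretch that their windows share, so that site was counted for both genes. CCAAT stood in 13 of the 35 and in 37.4% of all windows, and TATAA in 7 of the 35 and in 24.9% of all windows. A match describes letters in the window and nothing more.

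Col6a5 and Col6a4 lie in tandem on the minus strand of chromosome 9, with 28810 bases between them, and encode chains related to the alpha 3 chain of type VI collagen. Their windows are shown because these neighbours had the highest and the lowest ratio of all measured collagen genes in the labelled knockout over control. Capitals mark the same motifs, of which the Col6a5 window held none.
Col6a5 promoter (GRCm38.p6, chr9:105960594-105960893, minus strand): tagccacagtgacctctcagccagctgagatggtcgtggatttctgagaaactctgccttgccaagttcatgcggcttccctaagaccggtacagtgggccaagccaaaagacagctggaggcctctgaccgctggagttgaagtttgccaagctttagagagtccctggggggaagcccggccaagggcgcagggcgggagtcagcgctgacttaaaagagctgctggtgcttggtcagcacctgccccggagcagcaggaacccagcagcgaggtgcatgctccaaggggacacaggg
Col6a4 promoter (GRCm38.p6, chr9:106096642-106096941, minus strand): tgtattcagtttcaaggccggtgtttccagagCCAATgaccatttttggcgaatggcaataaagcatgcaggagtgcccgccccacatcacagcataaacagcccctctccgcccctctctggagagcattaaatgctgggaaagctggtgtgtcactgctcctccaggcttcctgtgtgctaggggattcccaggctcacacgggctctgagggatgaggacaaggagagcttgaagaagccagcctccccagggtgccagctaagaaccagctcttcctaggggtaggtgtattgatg

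Collagen transcripts were a small share of each library. The 44 genes summed to 1555 CPM in labelled knockout islets (0.155% of gene counts), 1071 CPM in the IMP2 RIP (0.107%), 586 CPM in the IgG library (0.0586%) and 1943 CPM in control islets (0.194%). At least 1 count was found for 43 of the 44 genes in labelled knockout islets, 33 in the IMP2 RIP, 26 in the IgG library and all 44 in control islets. Set to 3 counts, a count of 0 stands at 0.124 CPM in labelled knockout islets, 0.498 CPM in the IMP2 RIP, 0.227 CPM in the IgG library and 0.114 CPM in control islets. These floors cover the counting error of independent reads only. Most zeros were of genes weakly expressed in control islets. Of the 8 collagen genes at 0.1 to 1 CPM in control islets, 7 were at 0 in the IMP2 RIP, where 80.5% of all genes at that level were at 0, and all 8 in the IgG library, where 81.3% of them were. Of the 14 at 1 to 10 CPM, 4 were at 0 in the IMP2 RIP (36.7% of all genes at that level) and 8 in the IgG library (49.2%). Of the 22 collagen genes at 10 CPM or more in control islets none was at 0 in the IMP2 RIP, and Col7a1 and Col9a2 were at 0 in the IgG library.

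Per kilobase of transcript, which allows levels of different genes to be compared, the same few chains led. Col4a1 stood at 39.7 CPM per kilobase in labelled knockout islets, 23.2 in the IMP2 RIP, 12.5 in the IgG library and 61.4 in control islets. Col4a2 stood at 30.4 CPM per kilobase in labelled knockout islets, 22.6 in the IMP2 RIP, 4.99 in the IgG library and 43.0 in control islets. Col3a1, whose 3 identical chains form type III collagen, a partner of type I in elastic tissue, stood at 42.3 CPM per kilobase in labelled knockout islets, 24.5 in the IMP2 RIP, 6.01 in the IgG library and 41.6 in control islets. These 3 genes held the first 3 places in labelled knockout islets, the RIP and control islets, with Col3a1 first in labelled knockout islets and the RIP and Col4a1 first in control islets. Col1a2 followed in the fourth place in each of the 3, at 23.0 CPM per kilobase in labelled knockout islets, 17.8 in the IMP2 RIP and 31.4 in control islets. In the IgG library Col1a2 led at 20.1 CPM per kilobase, followed by Col6a1 at 12.6, Col4a1 at 12.5, Col1a1 at 11.2 and Col15a1 at 9.89. These places depend on the length used. Over the summed length of all annotated exons, Col4a1 led in labelled knockout islets at 35.2, Col4a2 in the IMP2 RIP at 22.0 and Col6a1 in the IgG library at 11.8. Col1a2 then stood below Col1a1 in every library, at 9.90 against 14.5 in labelled knockout islets and 8.63 against 10.1 in the IgG library. Among the weakest genes in control islets were 3 best known from other tissues. There Col2a1, the chain of cartilage type II, had 5 counts, Col10a1, a chain of hypertrophic cartilage, had 6, and Col17a1, a hemidesmosome protein of skin, had 15.

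**Figure D1:**
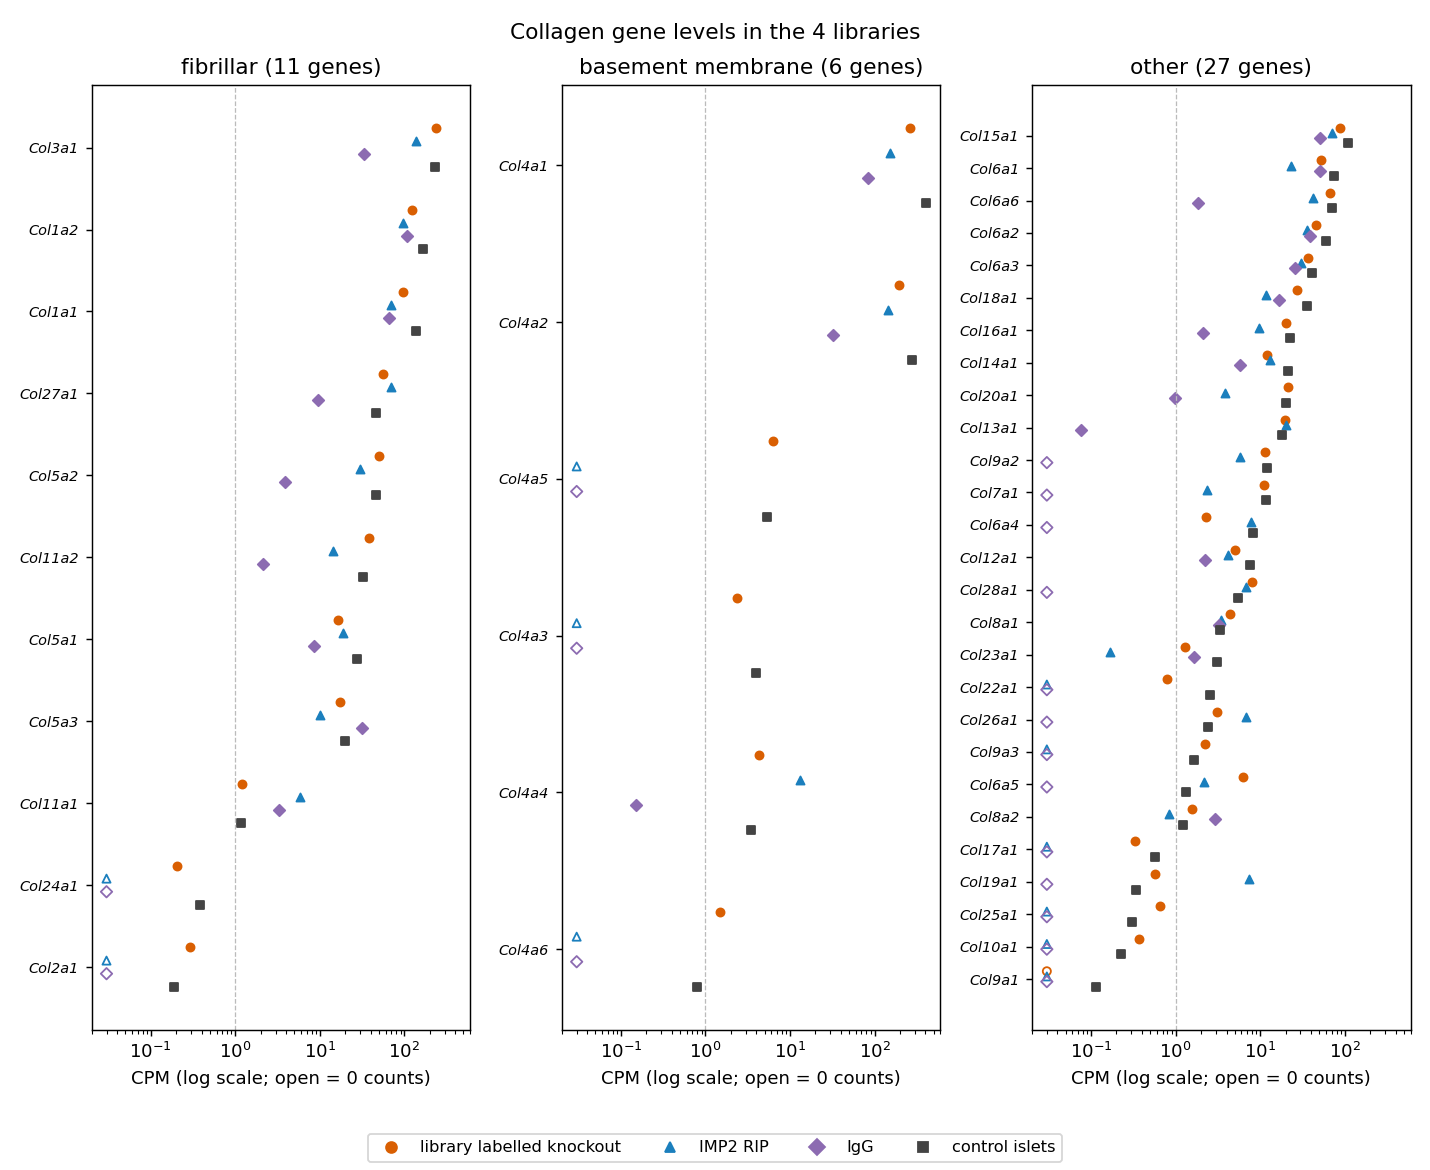
Level of each of the 44 collagen genes in CPM (log scale) in 4 libraries, 1 point per library, by class; open symbols at the left edge are 0 counts and the dashed line is 1 CPM. Col4a1, Col4a2 and Col3a1 lie highest in the libraries other than IgG, where Col1a2 does, Col4a3, Col4a5 and Col4a6 have points only in labelled knockout islets and control islets, and Col6a6 and Col13a1 lie far lower in the IgG library than in the other libraries.

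The balance of classes tilted away from type IV in every library other than control islets. Fibrillar genes made up 40.8% of collagen counts in labelled knockout islets (exact 95% interval 40.3 to 41.3), 42.0% in the IMP2 RIP (40.8 to 43.2), 45.4% in the IgG library (44.3 to 46.5) and 36.6% in control islets (36.2 to 37.0). Type IV genes made up 30.4% in labelled knockout islets (30.0 to 30.9), 29.1% in the IMP2 RIP (28.0 to 30.3), 19.6% in the IgG library (18.8 to 20.5) and 35.8% in control islets (35.4 to 36.3). The other collagens made up 28.8% in labelled knockout islets, 28.9% in the IMP2 RIP, 34.9% in the IgG library and 27.6% in control islets. The type IV intervals of the labelled knockout and the RIP overlapped each other, and neither reached that of control islets.

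**Figure D2:**
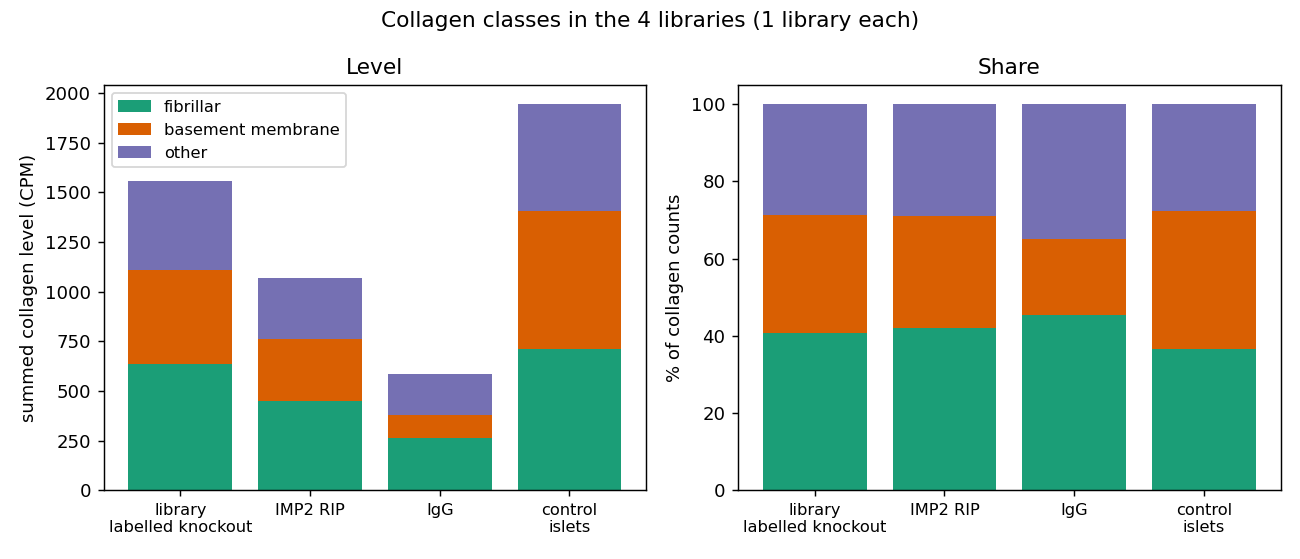
Stacked bars of the summed level (left, CPM) and of the share of collagen counts (right, percent) of the fibrillar, basement membrane (type IV) and other collagen genes in each library, with no error bars. The type IV share is 30.4% in labelled knockout islets, 29.1% in the IMP2 RIP, 19.6% in the IgG library and 35.8% in control islets.

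In the labelled knockout, collagen genes as a family differed from control islets about as often as other genes did. Of 37 measured collagen genes, those with a mean of at least 1 CPM over both libraries, 3 were higher (Col6a5, Col4a6 and Col28a1) and 6 were lower (Col6a4, Col22a1, Col23a1, Col14a1, Col5a1 and Col4a3), where a call needs an interval that excludes 1 and a 1.5-fold difference after scaling by the trimmed mean of M values. Over all 15735 measured genes 6.13% were higher and 15.3% were lower, 21.4% in all, and the collagen shares of 8.11% higher and 16.2% lower were near that background. Scaled by library totals, 2 collagen genes were higher and 7 lower, against 789 and 2609 of all 15735 measured genes. The median log2 ratio was -0.04 for the collagen genes and 0.00 for all measured genes. By class, 1 of 9 measured fibrillar genes was lower and none was higher, type IV had 1 of 6 in each direction, and the other collagens had 2 higher and 4 lower of 22.

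The abundant basement membrane and type I chains lay lower in labelled knockout islets, short of the 1.5-fold limit. The summed type IV level was 473 CPM in labelled knockout islets and 697 CPM in control islets, a scaled ratio of 0.703 (interval 0.687 to 0.720). The fibrillar sum was 634 CPM in labelled knockout islets and 711 CPM in control islets, a ratio of 0.923 (0.903 to 0.943), and that of the other collagens 448 CPM in labelled knockout islets and 536 CPM in control islets, a ratio of 0.866 (0.845 to 0.888). The interval of the type IV ratio lay below those of both other classes. Col4a1 had 263 CPM (6382 counts) in labelled knockout islets and 406 CPM (10697 counts) in control islets, a ratio of 0.671 (0.650 to 0.692), the measured collagen gene just outside the limit. Scaled by library totals or by DESeq2 size factors, its ratio of 0.648 or 0.659 passed the limit. Col4a2 had 196 CPM in labelled knockout islets and 277 CPM in control islets, a ratio of 0.732 (0.705 to 0.759). Both chains of this pair were thus lower, Col4a1 more so than Col4a2, with intervals that do not overlap. In bulk tissue such a difference can come from fewer cells of a type or from less RNA per cell, and these cannot be told apart.

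The minor type IV chains, known from the kidney filter and from epithelial basement membranes, did not follow Col4a1 and Col4a2. Col4a3 had 2.39 CPM (58 counts) in labelled knockout islets and 3.98 CPM (105 counts) in control islets, a ratio of 0.621 (0.443 to 0.864). Its head-to-head neighbour Col4a4 on chromosome 1, 71 bases away, had 4.28 CPM in labelled knockout islets and 3.42 CPM in control islets, a ratio of 1.30 with an interval of 0.970 to 1.74 that includes 1. Of this pair Col4a3 was called lower and Col4a4 was not called. On chromosome X, Col4a6 had 1.48 CPM (36 counts) in labelled knockout islets and 0.797 CPM (21 counts) in control islets, a ratio of 1.93 (1.09 to 3.47). Its head-to-head neighbour Col4a5 had 6.26 CPM in labelled knockout islets and 5.39 CPM in control islets, a ratio of 1.20 (0.951 to 1.52). Of the 3 head-to-head pairs, only Col4a1 and Col4a2 had both genes below 1 with intervals that exclude 1.

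Among the fibrillar chains, both type I genes lay lower and the type V genes differed from each other. Col1a1 had 95.4 CPM in labelled knockout islets and 139 CPM in control islets, a ratio of 0.712 (0.676 to 0.751), and its partner Col1a2 had 123 CPM in labelled knockout islets and 168 CPM in control islets, a ratio of 0.758 (0.724 to 0.795). Col3a1 had 235 CPM in labelled knockout islets and 232 CPM in control islets, a ratio of 1.05 (1.01 to 1.09). Col5a1, a chain of the type V collagen that starts fibrils and sets their width, had 16.6 CPM in labelled knockout islets and 27.4 CPM in control islets, a ratio of 0.625 (0.552 to 0.707), and was the fibrillar gene called lower. Its chain partner Col5a2 had 50.5 CPM in labelled knockout islets and 45.7 CPM in control islets, a ratio of 1.15 (1.06 to 1.24), and the third type V chain Col5a3 had 17.1 CPM in labelled knockout islets and 19.7 CPM in control islets, a ratio of 0.901 (0.790 to 1.03). Col27a1, a fibrillar chain best known from cartilage, had 56.0 CPM in labelled knockout islets and 45.9 CPM in control islets, a ratio of 1.26 (1.17 to 1.37).

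The widest differences in labelled knockout islets lay in the type VI cluster on chromosome 9. Col6a5 had 6.34 CPM (154 counts) in labelled knockout islets and 1.33 CPM (35 counts) in control islets, a ratio of 4.95 (3.41 to 7.36). Its neighbour Col6a4 had 2.27 CPM (55 counts) in labelled knockout islets and 8.16 CPM (215 counts) in control islets, 3.48-fold lower (2.58 to 4.77). The third gene of the cluster, Col6a6, had 66.1 CPM in labelled knockout islets and 70.4 CPM in control islets, a ratio of 0.973 (0.910 to 1.04). Of these 3 tandem genes 1 was thus higher, 1 was lower and 1 was within counting error of control islets. Of the classical type VI chains, which form beaded filaments around cells, Col6a1 had a ratio of 0.722 (0.672 to 0.775), Col6a2 of 0.800 (0.741 to 0.865) and Col6a3 of 0.923 (0.844 to 1.01), none past the limit.

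The remaining calls were Col22a1, Col23a1, Col14a1 and Col28a1. Col22a1, a collagen of tissue junctions, had 0.783 CPM (19 counts) in labelled knockout islets and 2.58 CPM (68 counts) in control islets, 3.18-fold lower (1.89 to 5.61). Col23a1, a membrane collagen, had 1.28 CPM (31 counts) in labelled knockout islets and 3.11 CPM (82 counts) in control islets, 2.35-fold lower (1.54 to 3.68). Col14a1, which coats fibrils, had 12.2 CPM in labelled knockout islets and 21.4 CPM in control islets, a ratio of 0.588 (0.509 to 0.678). Col28a1, known in mice from the sheaths around Schwann cells of peripheral nerve, had 8.03 CPM in labelled knockout islets and 5.43 CPM in control islets, a ratio of 1.53 (1.23 to 1.92), the measured gene just inside the limit. Its call was lost when libraries were scaled by their totals. Of 10 Schwann cell markers 2 were higher in labelled knockout islets and none was lower, where 6.13% of all measured genes were higher and 15.3% lower. None was at 0, and the summed levels were 179 CPM in labelled knockout islets and 170.2 CPM in control islets. Their part in the Col28a1 ratio was not tested.

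**Figure D3:**
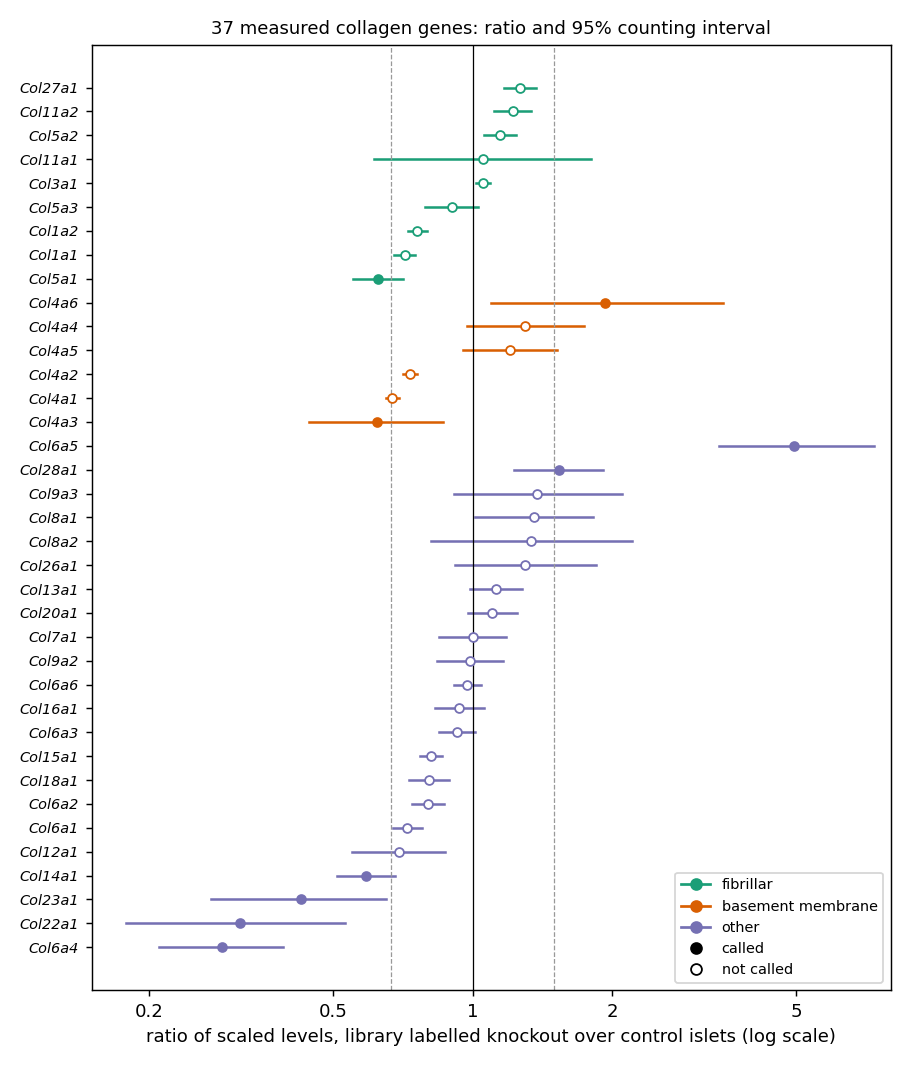
Ratio of the labelled knockout over control islets (log axis) for the 37 measured collagen genes with exact 95% counting intervals; filled points are called and the dashed lines mark the 1.5-fold limits. Col6a5 lies at 4.95 and Col6a4 at 0.288, the 2 ends of the range.

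Markers of some other cell types also differed between these islet libraries, where 6.13% of all measured genes were higher and 15.3% lower. All 9 T and B cell markers were lower in labelled knockout islets, with a summed level of 210.4 CPM in labelled knockout islets and 1195 CPM in control islets and none at 0 in either. Of 7 markers of lymph node stroma and vessels, a list chosen after earlier results of these data were known, 6 were lower, with sums of 119 CPM in labelled knockout islets and 398 CPM in control islets and none at 0. Of 15 stellate cell and fibroblast markers 2 were lower and none higher, with sums of 555 CPM in labelled knockout islets and 694 CPM in control islets. Of 12 endothelial markers 1 was lower and none higher, with sums of 1096 CPM in labelled knockout islets and 1352 CPM in control islets. In neither of these 2 lists was the share lower above that of all measured genes. No marker of these lists was at 0 in either library, and the median log2 ratio was -0.25 for both, against 0.00 for all measured genes. Of 10 measured acinar markers 3 were higher and none lower, and of 10 ductal markers 2 were higher and none lower. Of 10 beta cell markers 1 was higher and none lower, and of 8 macrophage markers 1 was higher and 2 lower. In each of the brown adipocyte list (5 measured) and the chondrocyte and bone list (3 measured) 1 was lower and none higher. The part of these cell types in the collagen ratios was not tested.

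Among genes that work with collagens, those whose proteins coat or join fibrils were the list with the most calls. These lists were chosen with earlier results of these data known, so a share above that of all genes is no independent support. Of 15 measured fibril partners 7 were lower in labelled knockout islets and none was higher, where 15.3% of all measured genes were lower and 6.13% higher, and the median log2 ratio was -0.52 against 0.00 for all measured genes. Tnc, the matrix glycoprotein tenascin C, had 1.32 CPM in labelled knockout islets and 5.20 CPM in control islets, a ratio of 0.263 (0.173 to 0.388). Bgn, the fibril proteoglycan biglycan, had 97.3 CPM in labelled knockout islets and 158 CPM in control islets, a ratio of 0.637 (0.605 to 0.670). Fbn2, a microfibril fibrillin, and Thbs2, a thrombospondin, were lower too, at ratios of 0.384 and 0.494, and Fn1, fibronectin, had a ratio of 1.05. The other 5 lists had 1 to 3 calls each, set against the same shares of all genes. Of 16 measured basement membrane partners 1 was lower, the laminin chain Lamb3 at a ratio of 0.375, and the abundant Sparc and Hspg2 (perlecan) had ratios of 0.876 and 0.936. Of 20 genes for collagen folding and modification 1 was higher, the foldase Fkbp14 at 1.97, and 1 was lower, the glycosyltransferase Colgalt1 at 0.629. The procollagen processing and crosslinking list had 1 higher, the enhancer Pcolce2 at 1.77, and 2 lower of 11, the propeptidases Adamts2 at 0.589 and Adamts14 at 0.626. Of 8 receptors the integrin chain Itga1 was lower at 0.652, and of 9 turnover genes the protease Mmp2 was lower at 0.596, with no gene higher in either list.

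Pairs of collagen genes were compared within each library, where scaling between libraries plays no part. Most pairs are chains that assemble into one molecule. Col6a6 with Col6a3 and Col3a1 with Col1a1 were not compared as such. The ratio of Col1a1 to Col1a2 per kilobase was 0.700 in labelled knockout islets (0.662 to 0.739), 0.653 in the IMP2 RIP (0.574 to 0.742), 0.560 in the IgG library (0.514 to 0.610) and 0.745 in control islets (0.713 to 0.778). Col4a1 to Col4a2 stood at 1.31 in labelled knockout islets (1.26 to 1.36), 1.03 in the IMP2 RIP (0.934 to 1.13), 2.51 in the IgG library (2.24 to 2.81) and 1.43 in control islets (1.39 to 1.47). For Col1a1 to Col1a2 the intervals of labelled knockout islets and of the RIP overlapped that of control islets. For Col4a1 to Col4a2 neither did, and both ratios lay below that of control islets. Both pairs lay farthest from control islets in the IgG library. Col5a1 to Col5a2 stood at 0.258 in labelled knockout islets (0.230 to 0.289), 0.489 in the IMP2 RIP (0.383 to 0.622), 1.75 in the IgG library (1.24 to 2.48) and 0.473 in control islets (0.431 to 0.519). The type V pair was thus far from its control balance in labelled knockout islets, with intervals that do not overlap. Col6a1 to Col6a2 stood at 1.10 in labelled knockout islets (1.01 to 1.19), 0.626 in the IMP2 RIP (0.503 to 0.777), 1.29 in the IgG library (1.14 to 1.44) and 1.22 in control islets (1.14 to 1.30). On reads the RIP thus lay apart from the other libraries. On the rough stand-in for molecules described below, the RIP over control intervals of these chains overlapped. They were 0.162 to 0.754 for Col6a1 and 0.381 to 1.29 for Col6a2. Col6a3 to Col6a2 stood at 0.349 in labelled knockout islets (0.319 to 0.382), 0.372 in the IMP2 RIP (0.304 to 0.455), 0.294 in the IgG library (0.255 to 0.337) and 0.303 in control islets (0.280 to 0.328). Col6a6 to Col6a3 stood at 1.86 in labelled knockout islets, 1.42 in the IMP2 RIP, 0.0719 in the IgG library and 1.76 in control islets. Col3a1 to Col1a1 stood at 2.63 in labelled knockout islets, 2.11 in the IMP2 RIP, 0.535 in the IgG library and 1.78 in control islets.

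**Figure D4:**
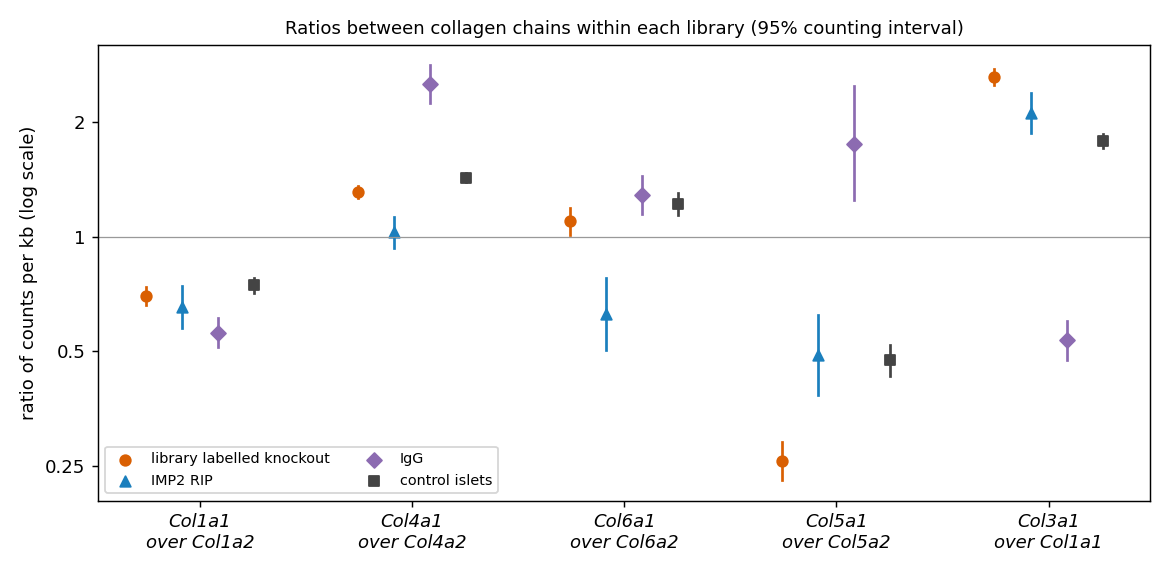
Ratio of levels per kilobase of collagen gene pairs within each library (log axis), with exact 95% counting intervals on reads, which are not independent molecules. Col5a1 over Col5a2 lies at 0.258 in labelled knockout islets and 0.473 in control islets, and the IgG library stands apart from the other libraries for the type IV, type V and Col3a1 over Col1a1 ratios.

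In the RIP, collagen genes were split against the IgG library. Of 32 measured collagen genes 17 were higher and 4 were lower at a 2-fold limit, that is 53.1% and 12.5%, where 43.2% and 30.5% of all 14822 measured genes were called, 73.7% in all. With totals that leave out hormone and acinar genes, 22 were higher and 2 lower, against 8546 and 2804 of all 14822 measured genes. The median log2 ratio was 1.29 for the collagen genes and 0.44 for all measured genes. The median of all genes was 1.13 with library totals and 1.56 without hormone and acinar genes. The collagen median lay 0.85 above it, an offset that no scaling can change, and 0.38 above it at a minimum mean of 5 CPM. Type IV had 2 of 3 measured genes higher and none lower, the fibrillar class 4 higher and 1 lower of 9, and the other collagens 11 higher and 3 lower of 20. The type IV sum was 312 CPM in the IMP2 RIP and 115 CPM in the IgG library, a ratio of 1.68 (1.57 to 1.80), and the fibrillar sum was 449 CPM in the IMP2 RIP and 266 CPM in the IgG library, a ratio of 1.05 (0.995 to 1.10).

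Col4a2, Col3a1, Col5a2 and Col27a1 were the abundant chains with more in the IMP2 RIP. Col4a2 had 146 CPM (878 counts) in the IMP2 RIP and 32.2 CPM (425 counts) in the IgG library, a ratio of 2.81 (2.50 to 3.16). Col4a1, which shares its start region with Col4a2, had 153 CPM (923 counts) in the IMP2 RIP and 82.8 CPM (1093 counts) in the IgG library, a ratio of 1.15 (1.05 to 1.25) that was not called. The pair whose promoter sequences were shown above thus had intervals on reads that do not overlap. When counts were divided by a rough stand-in for reads per molecule, described below, the intervals overlapped. They were then 0.765 to 1.72 for Col4a1 and 1.64 to 4.97 for Col4a2. Col3a1 had 136 CPM in the IMP2 RIP and 33.4 CPM in the IgG library, a ratio of 2.53 (2.25 to 2.84). Col5a2 had 30.2 CPM in the IMP2 RIP and 3.86 CPM in the IgG library, a ratio of 4.85 (3.54 to 6.75), and Col27a1 had 70.2 CPM in the IMP2 RIP and 9.47 CPM in the IgG library, a ratio of 4.60 (3.76 to 5.66). Col6a6 had 42.3 CPM (255 counts) in the IMP2 RIP and 1.82 CPM (24 counts) in the IgG library, a ratio of 14.4 (9.48 to 22.9). Col13a1, a membrane collagen of the neuromuscular junction, had 20.2 CPM (122 counts) in the IMP2 RIP and 0.0758 CPM (1 count) in the IgG library, a ratio of 166 whose interval starts at 29.2.

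The ratios of several collagen genes rest on absence from the IgG library. Col6a4 had 7.80 CPM (47 counts) in the IMP2 RIP and 0 counts in the IgG library, and was 21.3-fold higher when that library is set to 3 counts. By the same setting Col19a1 was 19.9-fold higher, Col26a1 and Col28a1 18.6-fold, Col9a2 15.8-fold, Col7a1 6.34-fold and Col6a5 5.89-fold. These 7 genes had 13 to 47 counts in the IMP2 RIP. A rough stand-in for the number of reads per molecule was taken from genes that both islet libraries lacked. Among those past 5 counts, the median was 18 counts in the IMP2 RIP and 21 in the IgG library. It is not a measured number of reads per molecule. The cut at 5 counts raises it, and genes truly present in a non-islet RNA pool can be among them. Elovl3, a brown adipocyte marker, was at 0 in both islet libraries and detected in the RIP and the IgG library. On counts divided by these numbers, 6 collagen genes were still higher (Col3a1, Col4a2, Col5a2, Col6a6, Col13a1 and Col27a1) and 2 lower (Col5a3 and Col6a1). The call of Col13a1 took its 1 count in the IgG library as 0.0476 of a molecule, less than a read can stand for. Its interval started at 1.56, so this call is not secure. None of the 7 genes at 0 in the IgG library was called on this scale.

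The 4 genes called lower were of the type V, VI, VIII and XVIII collagens. Col5a3, the third type V chain, had 9.96 CPM (60 counts) in the IMP2 RIP and 31.8 CPM (420 counts) in the IgG library, a ratio of 0.194 (0.145 to 0.255). Col6a1 had 23.4 CPM (141 counts) in the IMP2 RIP and 51.7 CPM (682 counts) in the IgG library, a ratio of 0.281 (0.233 to 0.337). Col8a2, a chain of a short network collagen, had 0.830 CPM (5 counts) in the IMP2 RIP and 2.96 CPM (39 counts) in the IgG library, a ratio of 0.174 (0.0536 to 0.442). Col18a1, the source of endostatin, had 11.8 CPM in the IMP2 RIP and 16.5 CPM in the IgG library, a ratio of 0.442 (0.334 to 0.581). The calls of Col18a1 and of Col6a1 depended on the scaling: the first was lost with library totals, and both were lost with totals that leave out hormone and acinar genes. Col1a1 and Col1a2 had ratios of 0.641 and 0.550 that turned to 1.39 and 1.19 with those totals, so the direction of type I collagen changed with the scaling, and Col6a2, Col6a3, Col8a1, Col15a1 and the sum of the other collagens likewise changed direction.

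**Figure D5:**
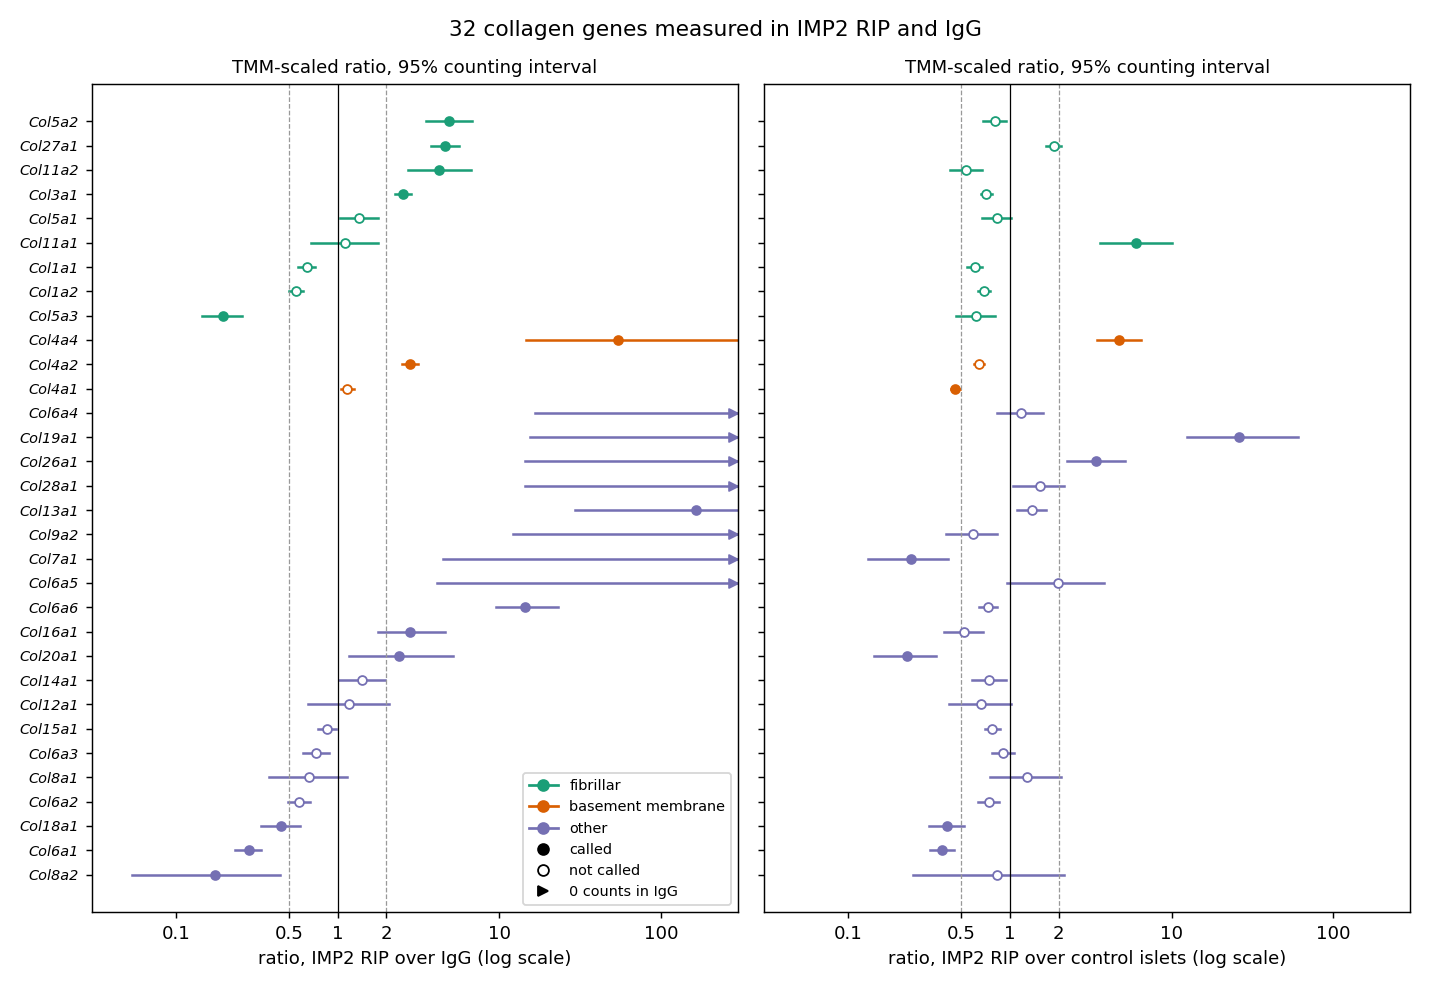
Ratio of the RIP over the IgG library (log axis) for the 32 measured collagen genes with exact 95% counting intervals; the right panel gives the same genes in the RIP over control islets. Filled points are called, dashed lines mark the 2-fold limits, triangles at the right edge are genes at 0 counts in the IgG library, whose line starts at the lower interval bound, and the lines of Col13a1 and Col4a4 run past that edge. Col13a1 lies at 166 and Col5a3 at 0.194.

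Set against control islets, the RIP held less collagen RNA than islets did. The 44 genes summed to 1071 CPM in the IMP2 RIP and 1943 CPM in control islets, and the scaled ratio was 0.669. Of 36 measured collagen genes 4 were higher (Col4a4, Col11a1, Col19a1 and Col26a1) and 9 lower (Col4a1, Col4a3, Col4a5, Col6a1, Col7a1, Col18a1, Col20a1, Col22a1 and Col23a1), 11.1% and 25%, where 16.8% and 24.3% of all 15968 measured genes were called, 41.2% in all; the share lower was near that background. Without hormone and acinar genes in the totals, 4 were higher and 16 lower, against 1964 and 5493 of all 15968 measured genes. The median log2 ratio was -0.47 for the collagen genes and -0.12 for all measured genes. The type IV sum had a ratio of 0.544, the fibrillar sum of 0.767 and the sum of the others of 0.701. The RIP over IgG and the RIP over control share the RIP library, so their ratios for one gene are not independent. Markers of some other cell types differed in the RIP over control too, to be set against the same shares of all genes. All 9 T and B cell markers were lower, with sums of 149 CPM in the IMP2 RIP (Cd8a at 0) and 1195 CPM in control islets. Of 7 markers of lymph node stroma and vessels 6 were lower, with sums of 56.1 CPM in the IMP2 RIP (Madcam1 and Tnfsf11 at 0) and 398 CPM in control islets. All 11 measured brown adipocyte markers were higher, with sums of 2421 CPM in the IMP2 RIP (Cpt1b at 0) and 274 CPM in control islets (Adrb3 and Elovl3 at 0). Of 14 measured stellate cell and fibroblast markers 2 were higher and 1 lower, with sums of 454 CPM in the IMP2 RIP (Mfap5 at 0) and 694 CPM in control islets. Of 12 endothelial markers 1 was higher and 3 lower, with sums of 973 CPM in the IMP2 RIP and 1352 CPM in control islets. Of 5 measured mesothelial markers 3 were higher and 1 lower, and of 10 Schwann cell markers 4 were higher and 2 lower. Of 4 measured chondrocyte and bone markers 3 were higher and 1 lower, and of 8 macrophage markers 1 was higher and 4 lower. Of 10 ductal markers 1 was higher and 2 lower, of 10 measured acinar markers 1 was lower, and no beta cell marker was called. Their part in the collagen ratios was not tested.

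Single collagen genes ranged widely in the RIP over control. Col4a1 had 153 CPM in the IMP2 RIP and 406 CPM in control islets, a ratio of 0.458 (0.428 to 0.490), and was called lower, whereas Col4a2 had 146 CPM in the IMP2 RIP and 277 CPM in control islets, a ratio of 0.638 (0.594 to 0.685). Col4a4 had 13.3 CPM (80 counts) in the IMP2 RIP and 3.42 CPM (90 counts) in control islets, a ratio of 4.72 (3.45 to 6.45). Its head-to-head neighbour Col4a3 had 0 counts in the IMP2 RIP and 105 in control islets, 6.59-fold lower with the RIP set to 3 counts. Col4a5, with 0 counts in the IMP2 RIP and 142 in control islets, was 8.92-fold lower by the same setting. On rough molecules neither was called, with ratio intervals of 0 to 3.42 for Col4a3 and 0 to 2.51 for Col4a5. Of the 4 minor type IV genes, Col4a4 was thus the 1 detected in the IMP2 RIP. Col27a1 had 70.2 CPM in the IMP2 RIP and 45.9 CPM in control islets, a ratio of 1.86 (1.66 to 2.08) that was below the 2-fold limit, while Col3a1, Col5a2 and Col6a6 had ratios of 0.713, 0.802 and 0.730 with intervals below 1. Col19a1, a collagen of basement membrane zones, had 7.30 CPM (44 counts) in the IMP2 RIP and 0.342 CPM (9 counts) in control islets, a ratio of 26.0 (12.5 to 60.5). Col11a1, a cartilage fibril chain, had 5.81 CPM in the IMP2 RIP and 1.18 CPM in control islets, a ratio of 5.99 (3.59 to 10.1), but also 3.26 CPM in the IgG library. On rough molecules, Col4a4 and Col19a1 were still called higher and Col4a1 and Col6a1 lower.

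The IgG library, compared with control islets in the same way, held fewer collagen genes and less of most. Of 34 measured collagen genes 3 were higher (Col5a3, Col8a2 and Col11a1) and 19 lower, 8.82% and 55.9%, where 25.7% and 47.3% of all 15352 measured genes were called, 73% in all. Totals without hormone and acinar genes left 0 higher and 30 lower, against 1924 and 10441 of all 15352 measured genes. All 5 measured type IV genes were lower, among them Col4a1 with 82.8 CPM in the IgG library and 406 CPM in control islets, a ratio of 0.384 (0.361 to 0.409). Col5a3 had 31.8 CPM in the IgG library and 19.7 CPM in control islets, a ratio of 3.05 (2.67 to 3.47) that was 1.62 with library totals, short of the limit, and whose log2 value was 0.11 without hormone and acinar genes. On rough molecules 1 collagen gene was higher, Col5a3, and 12 were lower. Col13a1 is among the latter, with its 1 count in the IgG library again taken as 0.0476 of a molecule. Col6a6 had 1.82 CPM in the IgG library and 70.4 CPM in control islets, 20.5-fold lower (13.8 to 32.2), whereas Col6a3 had 25.9 CPM in the IgG library and 40.9 CPM in control islets, a ratio of 1.19 that was 0.633 with library totals and 0.422 with totals without hormone and acinar genes. The sum of stellate cell and fibroblast markers was 685 CPM in the IgG library against 694 CPM in control islets, with none at 0, and that of endothelial markers was 722 CPM in the IgG library against 1352 CPM in control islets, with none at 0. These sums are CPM over library totals, whereas the calls use scaled ratios. By those ratios 5 of 15 measured stellate cell and fibroblast markers were higher and 2 lower, with a median log2 value of 0.33. Of 12 endothelial markers 3 were higher and 5 lower, with a median of -0.48. The median of all measured genes was -0.79, with 25.7% higher and 47.3% lower. A change of scaling moves these medians alike. How far the brown adipocyte transcripts bear on the collagen values of the IgG library was not tested.

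Collagen partner genes in the RIP over IgG had calls in both directions in each list. Of 20 measured folding and modification genes 8 were higher and 4 lower, where 43.2% of all measured genes were higher and 30.5% lower, with the prolyl hydroxylase subunit P4hb at a ratio of 3.92 (3.66 to 4.20) and the collagen chaperone Serpinh1 at 0.129 (0.115 to 0.144). Of 16 basement membrane partners 6 were higher and 5 lower, among them the laminin chain Lama3 with 107 counts in the IMP2 RIP and 0 in the IgG library, and Hspg2 at 0.249 (0.230 to 0.269). Processing and crosslinking genes had 5 higher and 4 lower of 10, with Bmp1, which cuts the procollagen C-terminal propeptide, at 9.36 (7.57 to 11.7) and Tgm2, a crosslinking transglutaminase, at 0.115. Turnover genes had 2 higher and 4 lower of 8, receptors 2 in each direction of 7, and fibril partners 2 higher and 4 lower of 9.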

How the data were processed

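RNA from 4 islet libraries, 1 per group, was compared. The deposited files hold whole-number read counts per Ensembl gene. STAR, HTSeq and the mm10 build are named in the submitters' processing notes; versions, annotation and the strand option are not given in the sources used here. Of 43629 gene entries, 42548 were matched to GENCODE M21 names (GRCm38, the same assembly as mm10) and 1081 were not. The 5 closing entries that name no gene held 50.3% of all counts in the labelled knockout, 72.4% in the RIP, 70.5% in the IgG library and 50.8% in control islets, and stayed out of library sizes. Exon bases shared with another gene, whose reads cannot be separated without strand, were found for 12 collagen genes, at most 6.07% of the exon length (Col9a3).

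CPM was computed here over gene counts, and per kilobase over the longest APPRIS principal transcript. Each pair of libraries was scaled by TMM in edgeR 4.0.16 (R 4.3.3). Ratios have exact Clopper-Pearson 95% intervals over the counts of both libraries. Genes with a mean of at least 1 CPM were measured; 0.5 counts were added for log2 medians, and 3 counts stand in for 0 in bounds. Without molecular identifiers, reads are not independent molecules, and intervals and floors cover counting error only. Direction was checked with library totals, DESeq2 1.42.0 size factors and totals without hormone and acinar genes. All collagen genes may be named; of partner lists, the genes called (up to 3 most extreme per direction) and the most abundant 2. The members and lists were chosen with earlier results of these data known. Promoter windows are from RefSeq (GRCm38.p6). Other steps used Python 3.11.15, pandas 2.3.3, NumPy 2.4.6, Matplotlib 3.10.9 and SciPy 1.17.1. The ratios were tried on simulated independent reads drawn from control islet levels, with a small set of genes changed. In the real data 73.7% of measured genes were called in the RIP over IgG and 73% in the IgG library over control. The simulation therefore checks the arithmetic and cannot show that scaling or intervals hold in those comparisons. No test between conditions was possible, and no p-value is given.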

Additional observations from a re-analysis of the deposited data

How the results depend on the processing

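No paired analysis was possible because each group has 1 library, and for the same reason there was no leave-one-out run. No called collagen gene changed direction under library totals, DESeq2 size factors or totals without hormone and acinar genes. The cause of the shifts below was not tested.

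In the labelled knockout over control, 1 of 26 measured collagen genes was higher and 3 lower at a minimum mean of 5 CPM. Of all 12234 genes measured there, 497 were higher and 1582 lower. At a fold limit of 2 the collagen counts were again 1 and 3, against 198 and 1375 of all 15735 measured genes. In the RIP over IgG, the median log2 ratio was 1.98 with library totals, 2.41 with totals without hormone and acinar genes and 0.47 at 5 CPM. At 5 CPM 9 of 20 measured collagen genes were higher, against 3945 of all 10810 measured genes. Without hormone and acinar genes 2 of 32 were lower, against 2804 of all 14822. At a fold limit of 4, 2 of 32 were lower, against 2975 of all 14822. In the RIP over control, the median was -0.75 with totals and -0.90 without hormone and acinar genes. With the latter, 16 of 36 collagen genes and 5493 of all 15968 measured genes were lower. At 5 CPM 1 of 26 was higher and 5 lower, against 1302 and 2220 of all 12166. In the IgG library over control, the median was -2.54 with totals, -1.46 with DESeq2 size factors, -3.13 without hormone and acinar genes, -2.18 with no minimum and -1.37 at 5 CPM. Without hormone and acinar genes 0 of 34 collagen genes were higher and 30 lower, against 1924 and 10441 of all 15352 measured genes. At 5 CPM 1 of 22 was higher and 12 lower, against 3162 and 4901 of all 11665. A scaling moves all genes alike and cannot change the difference between the collagen median and that of all measured genes, but the minimum can: in the RIP over IgG it was 0.85, and 0.38 at 5 CPM, and in the IgG library over control -0.84, and -1.29 with no minimum. On rough molecules, chosen after seeing the data, 6 were higher and 2 lower in the RIP over IgG, 2 and 2 in the RIP over control, and 1 and 12 in the IgG library over control. The divisor behind them is not a measured number of reads per molecule, and no share over all genes is given for these counts. It turned some counts, such as that of Col13a1 in the IgG library, into less than 1 molecule.

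In CPM without hormone and acinar genes, the fibrillar, type IV and other sums were 1002, 748 and 708 in the labelled knockout, 606, 421 and 417 in the RIP, and 1068, 1046 and 804 in control islets. With Col15a1, Col18a1 and Col7a1 in the basement membrane class, its share was 38.5% in the labelled knockout, 37.1% in the RIP, 31.2% in the IgG library and 44.0% in control islets, and that of the others 20.7% in labelled knockout islets, 21.0% in the RIP, 23.4% in the IgG library and 19.4% in control islets. Per kilobase, the type IV share was 26.9% in the labelled knockout, 25.7% in the RIP, 16.5% in the IgG library and 31.9% in control islets, that of the others 32.6% in labelled knockout islets, 33.4% in the RIP, 39.9% in the IgG library and 31.4% in control islets, and the fibrillar share of the IgG library 43.6%. With exon lengths in place of principal transcripts, an alternative chosen after seeing the data, the level per kilobase moved beyond its counting interval for 23 genes and stayed within it for 21. Depth limits the RIP most, where 3 counts are 0.498 CPM.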

Other observations

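Some collagen genes of moderate level are best known from other tissues. Col11a2, a cartilage fibril chain, had 38.5 CPM in labelled knockout islets, 14.4 CPM in the IMP2 RIP, 2.12 CPM in the IgG library and 32.7 CPM in control islets. Col20a1, a collagen of the fibril-coating group, had 21.5 CPM in labelled knockout islets, 3.82 CPM in the IMP2 RIP, 0.985 CPM in the IgG library and 20.2 CPM in control islets, and was 4.36-fold lower in the IMP2 RIP than in control islets (2.87 to 6.93). Col9a2, another chain of that group, had 11.4 CPM in labelled knockout islets, 5.81 CPM in the IMP2 RIP, 0 counts in the IgG library and 12.0 CPM in control islets, while its partner Col9a1 was at 0 in the first 3 and had 3 counts in control islets. The 11 chondrocyte and bone markers summed to 22.3 CPM in labelled knockout islets, 33.4 CPM in the IMP2 RIP, 0.303 CPM in the IgG library and 21.4 CPM in control islets, with 4 of them at 0 in labelled knockout islets, 8 in the IMP2 RIP, 8 in the IgG library and 1 in control islets.

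Mesothelial markers, of cells that cover the pancreas, were mixed: 3 of 6 (Wt1, Upk3b and Lrrn4) were higher in labelled knockout islets than in control islets and none was lower. Of all measured genes 6.13% were higher and 15.3% lower. The markers summed to 126 CPM in labelled knockout islets and 136 CPM in control islets, with none at 0. Their part in the collagen ratios was not tested.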
